A study of Mus musculus with 12 samples.

Results

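The methionine cycle and the transsulfuration pathway were followed through the mRNAs of 9 enzyme genes in the liver of mice lacking Phgdh in hepatocytes. The genes were Mat1a, Mat2a, Mat2b, Ahcy, Bhmt, Bhmt2, Mtr, Cbs and Cth. They were chosen by pathway and by no rule on measured values, although earlier results of these data were known. A probe was assigned to a gene when the RefSeq accession on the array belonged to that symbol. The array carried 14 probes for these 9 genes, out of 39429 probes for 32525 genes or unnamed transcripts, of which 16915 could be tested.

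Total liver RNA from 6 LKO mice and 6 littermate Floxed mice was hybridized to 12 single-color Agilent arrays, 1 mouse per array. Floxed mice carried Phgdh flox/flox alleles without Cre, and LKO mice carried the same alleles plus Alb-Cre, which removes part of the Phgdh gene, the fourth and the fifth exon, where the albumin promoter is active. All were C57BL/6 males, 30 weeks old, on laboratory chow with casein. Cre driven by albumin acts in hepatocytes, so the other cells of the liver keep an intact Phgdh gene, and the arrays read the whole tissue.

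Methionine is activated to S-adenosylmethionine (SAM), the methyl donor of the cell, by the methionine adenosyltransferases. Once its methyl group is used, SAM becomes S-adenosylhomocysteine (SAH) and then homocysteine, which is either methylated back to methionine or joined to serine and carried through cystathionine to cysteine. Phgdh commits 3-phosphoglycerate to serine synthesis, and serine enters this network both as the partner of homocysteine and as a source of one-carbon units, so the arrays bear on whether these liver mRNAs differed once Phgdh was deleted in hepatocytes.

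Promoter sequences from RefSeq (GRCm38.p6) were at hand for 7 of the 9 genes, namely Mat2a, Mat2b, Ahcy, Bhmt, Bhmt2, Mtr and Cbs. Those of 3 genes are given to show how unlike they are in base composition: Bhmt and Bhmt2, which are neighbors on chromosome 13 and encode related enzymes, and Mat2a, whose probes gave the lowest p-value of the genes. Each run covers the 250 bases before the annotated start of the gene, 5′ to 3′ on the minus strand, with every CpG in capitals. The positions are chr6:72439557-72439806 for Mat2a, chr13:93637759-93638008 for Bhmt and chr13:93674303-93674552 for Bhmt2.
Mat2a: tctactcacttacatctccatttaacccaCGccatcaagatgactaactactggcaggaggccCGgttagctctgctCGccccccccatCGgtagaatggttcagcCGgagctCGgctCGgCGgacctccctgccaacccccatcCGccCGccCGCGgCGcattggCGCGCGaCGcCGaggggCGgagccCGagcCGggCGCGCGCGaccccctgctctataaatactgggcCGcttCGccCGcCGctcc
Bhmt: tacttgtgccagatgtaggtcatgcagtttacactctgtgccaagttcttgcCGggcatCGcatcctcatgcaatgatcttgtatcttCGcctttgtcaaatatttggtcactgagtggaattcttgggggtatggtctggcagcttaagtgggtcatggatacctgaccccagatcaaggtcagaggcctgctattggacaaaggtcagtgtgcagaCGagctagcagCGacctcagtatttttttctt
Bhmt2: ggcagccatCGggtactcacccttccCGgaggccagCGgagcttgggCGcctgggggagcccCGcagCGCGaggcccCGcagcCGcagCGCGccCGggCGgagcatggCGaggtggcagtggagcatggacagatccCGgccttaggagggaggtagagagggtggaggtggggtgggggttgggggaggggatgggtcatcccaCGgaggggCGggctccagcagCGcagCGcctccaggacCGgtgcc

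The Mat2a run held 29 CpGs and the Bhmt2 run 20, against 5 in the run of Bhmt and a median of 6 in 32851 mouse promoters of the same length. Among the others, Cbs held 21, Mtr 20, Mat2b 13 and Ahcy 9. The run lay partly inside the annotated span of the gene for Cbs and Mtr, and wholly inside it for Mat2b. Both strands were searched for the letters TATAAA, which were present in 1 of the 7 promoters, that of Mat2a, and in 12.4% of all promoters. The letters CCAAT were present in 6 of the 7, Bhmt2 being the exception, and in 33.8% of all promoters. These matches describe the sequence only, and no measurement here tested a promoter.

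All 14 probes were well above background on all 12 arrays. Values are given as log2 intensity after quantile normalization, a gene was read by its brightest probe, and differences are LKO minus Floxed on the log2 scale. Because probes differ in affinity, the level of one gene was not set against that of another. The 12 hepatocyte markers examined, Alb among them, were all tested, none was called, and the lowest value of any of them on any array was 12.80. One of them, Serpina1a, had the same normalized value of 18.77 on every array and so could not be called. The markers of other liver cells had median differences of -0.098 for Kupffer cells and macrophages, where all 10 tested genes were lower in LKO, 0 were called and 9 of the 10 were higher within slide 2, and of -0.0062 for endothelial cells, 0.047 for stellate cells, -0.060 for lymphocytes, 0.076 for cholangiocytes, -0.22 for adipocytes, 0.16 for pancreas acinar cells, -0.26 for blood, 0.048 for pericentral and -0.0053 for periportal hepatocytes. In these lists 3 genes were called, where the same rule called 8.35% of all tested genes. Lgr5 was called higher, 1 of 9 tested pericentral markers, Pecam1 higher, 1 of 9 endothelial markers, and Cftr lower, 1 of 3 cholangiocyte markers. Their differences were 0.30, 0.70 and -0.83 over all mice and 0.61, 0.042 and -1.49 within slide 2. The adipocyte median rested on 2 tested genes and the pancreas acinar median on 3. The brighter probe of Phgdh itself ranged from 4.81 to 5.50 in Floxed liver. LKO 1 and LKO 2 had 5.07 and 5.30, inside the Floxed range, whereas LKO 3 to LKO 6 had 4.23 to 4.66. The dimmer Phgdh probe was not well above background on all arrays and was not used. It gave 2.42 to 3.19 in Floxed liver. In LKO 1 and LKO 2 it gave 2.21 and 3.06, and 3.13 to 3.73 in LKO 3 to LKO 6. Whether either probe falls in the removed exons was not analysed here. The arrays lay on 3 slides: slide 1 held Floxed 1 to 4, slide 2 held Floxed 5 and 6 with LKO 1 and 2, and slide 3 held LKO 3 to 6. Slide and genotype can therefore be separated on slide 2 only, so for the 9 enzyme genes the difference is given over all mice, within slide 2, and between slide 3 and slide 1, where slide and genotype cannot be told apart.

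None of the 9 enzyme genes passed the threshold used in the study's methods, an unadjusted limma p below 0.05. Over all 16915 tested genes the same rule called 1413, or 8.35%, of which 832 were higher in LKO (4.92%) and 581 lower (3.43%). After Benjamini-Hochberg adjustment limma called 0 of the 16915 genes (0%), and the smallest adjusted p was 0.132 over all genes and 0.881 among the 9. The methods' t-test called 1236 genes at the unadjusted threshold, 1 after adjustment and 0 at the adjusted threshold with a log2 difference of 1 or more in size, which is what the methods state for it, and it called 0 of the 9 each time. The Floxed and LKO values overlapped for every one of the 9 genes, whereas they did not overlap for 0.296% of all tested genes.

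The 95% intervals give the precision of each difference with 6 mice a group, a number that limits every value here. In the fit without slide, they ran over the 9 genes from -0.33, the lower bound for Mat2a, to 0.32, the upper bound for Bhmt. That is from 0.798-fold to 1.25-fold of the Floxed level. With slide as a fixed block they ran from 0.605-fold to 1.41-fold. The median absolute difference over all mice was 0.034 for the 9 genes and 0.088 for all tested genes. Within slide 2 it was 0.101 against 0.108, and between slide 3 and slide 1 it was 0.115 against 0.125. The median SD within a genotype was 0.20 for the 9 genes, against 0.22 for all tested genes, so the spread between mice was of similar size. In whole liver, fewer cells of a type and less RNA per cell cannot be told apart.

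**Figure D1:**
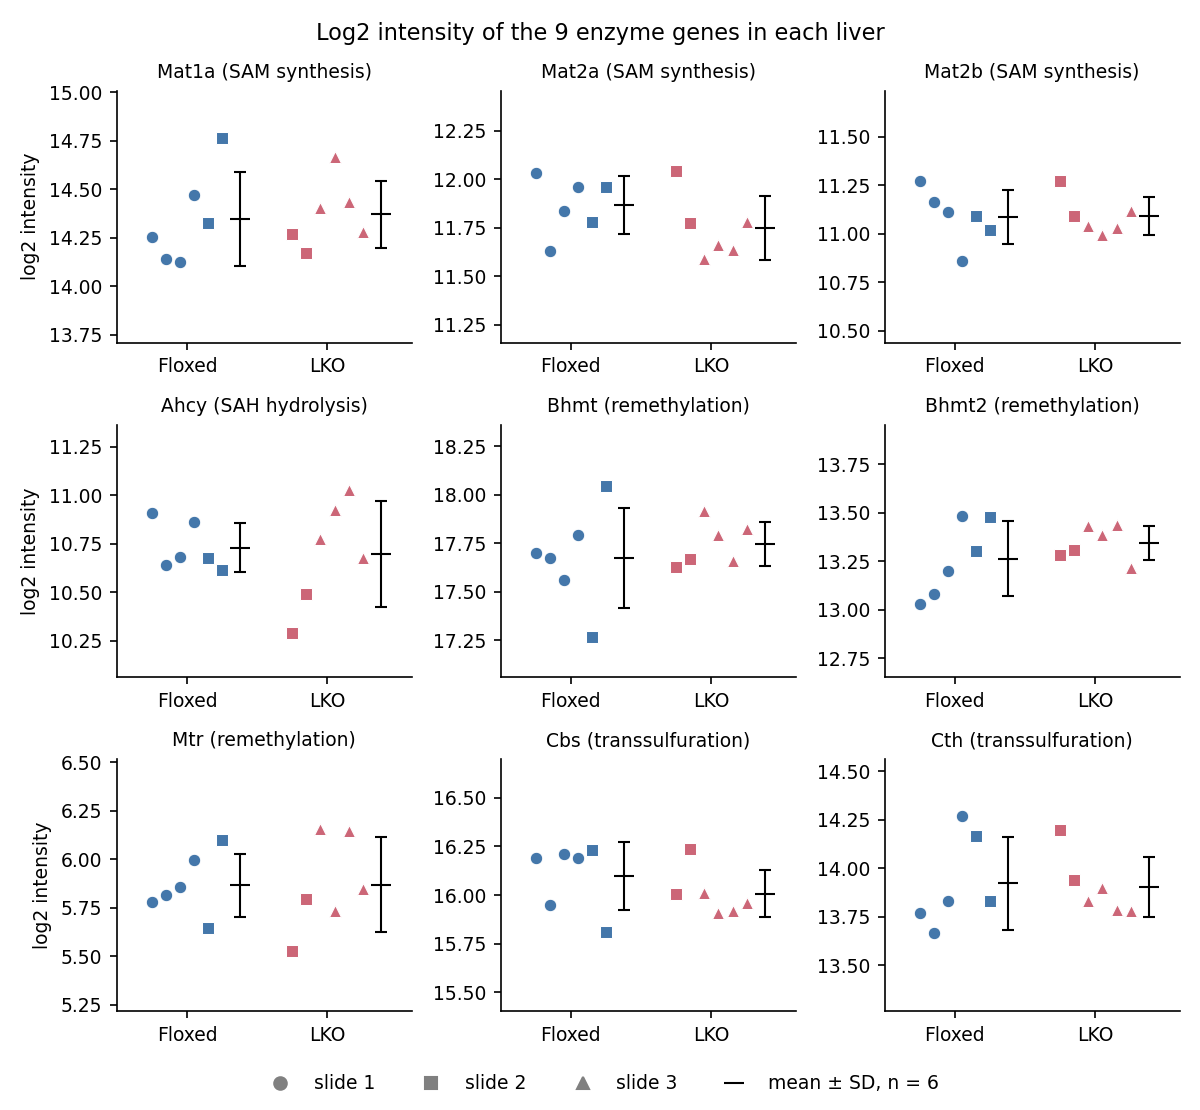
Log2 intensity (y axis, 1 panel per gene, each spanning the same width of log2 scale) of the 9 enzyme genes in the 6 Floxed and 6 LKO livers, with the mean ± SD beside each group and the slide given by the marker shape. The groups overlap in every panel, and for Ahcy the LKO mice of slide 2 lie at 10.29 and 10.49, below the other 10 mice.

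Among the genes of SAM synthesis, Mat1a encodes the catalytic subunit of the adult liver enzyme. In Floxed liver its level was 14.13 at the lowest, 14.29 at the median and 14.76 at the highest, and in LKO liver 14.17, 14.34 and 14.67. The ranges almost coincided, with Floxed 6 the highest of all mice. The difference was 0.024 (SE 0.12, 95% interval -0.23 to 0.28, limma adjusted p = 0.988). It was -0.32 within slide 2 and 0.20 between slide 3 and slide 1.

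Mat2a encodes the catalytic subunit found in most tissues outside the adult liver and in dividing hepatocytes, and Mat2b encodes the regulatory subunit that binds it. The Mat2a probe with the higher signal gave 11.63, 11.90 and 12.03 as the lowest, median and highest Floxed values and 11.59, 11.72 and 12.04 in LKO liver. LKO 1 was the highest of all 12 mice and LKO 3 the lowest, so the groups overlapped over nearly their whole range. The difference of -0.12 (SE 0.10, 95% interval -0.33 to 0.088) had the smallest limma p of the 9 genes, 0.236, with an adjusted p of 0.881, and a two-sided exact permutation test gave p = 0.225. It was 0.041 within slide 2 and -0.20 between slide 3 and slide 1.

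The second Mat2a probe was the dimmer one. Its values were 6.53, 6.98 and 7.14 as the lowest, median and highest in Floxed liver and 6.05, 6.55 and 6.87 in LKO liver. In 4 Floxed mice it exceeded every LKO mouse, while Floxed 1 and Floxed 2 fell among the LKO values. The probe was lower in LKO by this fit, with a difference of -0.36 (SE 0.14, 95% interval -0.67 to -0.047; limma p = 0.0273, two-sided exact permutation p = 0.039). The limma adjusted p over all probes was 0.504. It was the only one of the 14 probes to be called, where the same rule called 8.54% of all kept probes and 4.07% of them as lower.

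The dimmer Mat2a probe had differences of -0.45 within slide 2 and -0.31 between slide 3 and slide 1, both in the same direction. The call was lost without any 1 of Floxed 3, Floxed 4, Floxed 5, Floxed 6, LKO 3 and LKO 5, with differences of -0.43 to -0.26 over all arrays left out in turn, and without LKO 1 and LKO 2 together (-0.37, limma adjusted p = 0.397). It was also lost with slide as a fixed block (-0.45, limma adjusted p = 1). Across the 12 mice the Mat2a probes correlated with r = 0.42 and rho = 0.50, whereas the 2 probes of Ahcy, the 2 of Cth and the 3 of Bhmt correlated with r from 0.87 to 0.96. The genotype difference of the dimmer probe minus that of the brighter one was -0.24, which a two-sided exact permutation test did not separate from 0 (p = 0.152). The part of the Mat2a transcript that each probe reads was not analysed here.

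**Figure D2:**
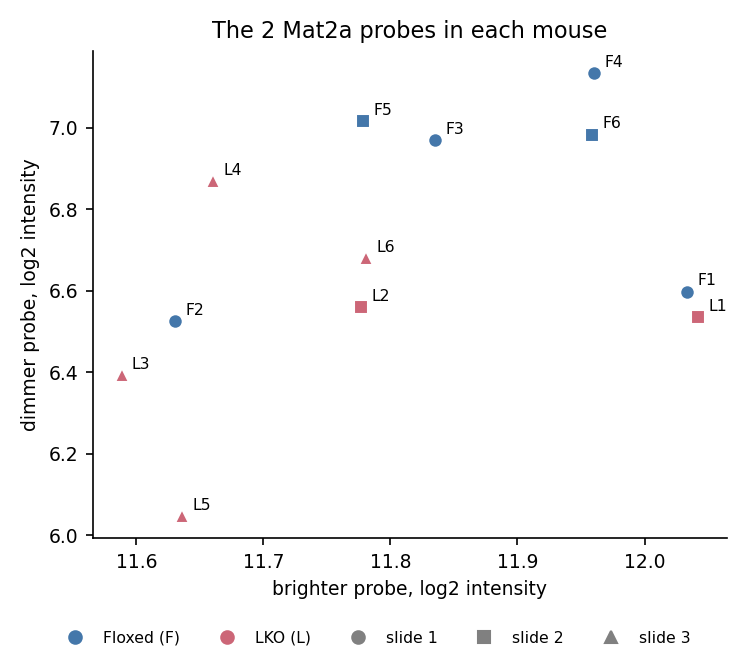
Log2 intensity of the dimmer Mat2a probe (y axis) against the brighter one (x axis), 1 point per mouse, colored by genotype and shaped by slide. Floxed 3 to Floxed 6 lie above all LKO mice on the y axis, between 6.97 and 7.14, while on the x axis the genotypes are mixed.

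Mat2b was nearly the same in both genotypes. Its lowest, median and highest values were 10.86, 11.10 and 11.27 in Floxed liver and 10.996, 11.07 and 11.27 in LKO liver, so that the LKO range lay inside the Floxed range. The difference was 0.0052 (SE 0.081, 95% interval -0.17 to 0.18), the narrowest interval of the 9 genes, and turned negative with 75th percentile scaling (-0.0034) and with normexp background correction (-0.065). It was 0.13 within slide 2 and -0.055 between slide 3 and slide 1.

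Ahcy encodes the hydrolase that splits SAH into homocysteine and adenosine and so removes the inhibitor of SAM-dependent methylation. Floxed values were 10.61, 10.68 and 10.91 at the lowest, median and highest, and LKO values 10.29, 10.73 and 11.02. The LKO group spread over more than the whole Floxed range, with LKO 1 and LKO 2 below all Floxed mice, and LKO 4 and LKO 5 above all of them. The difference was -0.034 (SE 0.12, 95% interval -0.29 to 0.23, limma adjusted p = 0.98).

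Within the LKO group, the Ahcy mean of slide 3 exceeded that of slide 2 by 0.46 on the first probe and by 0.42 on the second. The second probe placed the same pair lowest, at 9.95 and 10.08 against 10.36 to 10.59 for LKO 3 to LKO 6. These are the livers whose signal on the brighter Phgdh probe was inside the Floxed range, and whether the 2 facts are linked was not tested. Within slide 2 the Ahcy difference was -0.26, and between slide 3 and slide 1 it was 0.077. Without LKO 1 and LKO 2 it was 0.12 (limma adjusted p = 0.73), and the LKO mice left were all on slide 3.

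Of the remethylation genes, Bhmt encodes the liver enzyme that moves a methyl group from betaine to homocysteine, and Bhmt2 encodes its relative, which uses S-methylmethionine. Bhmt was 17.27 at the lowest, 17.69 at the median and 18.04 at the highest in Floxed liver, and 17.63, 17.73 and 17.91 in LKO liver. Both Floxed extremes, Floxed 5 and Floxed 6, were on slide 2, and the LKO range lay between them. The difference was 0.075 (SE 0.11, 95% interval -0.17 to 0.32). The other 2 Bhmt probes gave 0.069 and 0.12, and neither was called.

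Bhmt2 was 13.03, 13.25 and 13.48 at the lowest, median and highest in Floxed liver and 13.22, 13.35 and 13.44 in LKO liver, again inside the Floxed range. Its difference of 0.080 (SE 0.093, 95% interval -0.12 to 0.28) was the largest positive one of the 9, with a limma adjusted p of 0.948. The SD between mice was smaller in LKO than in Floxed liver for both neighbors, 0.11 against 0.26 for Bhmt and 0.089 against 0.19 for Bhmt2. The spreads themselves were not tested. Within slide 2 the differences were -0.0061 for Bhmt and -0.097 for Bhmt2, and between slide 3 and slide 1 they were 0.12 and 0.17.

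Mtr encodes the cobalamin-dependent methionine synthase, which takes the methyl group from folate. It ranged from 5.64 to 6.10 around a median of 5.84 in Floxed liver and from 5.53 to 6.16 around 5.82 in LKO liver. The LKO values enclosed all Floxed values. The difference was 0.0026 (SE 0.12, 95% interval -0.25 to 0.26), and its sign turned with normexp background correction (-0.028) and in the authors' table (-0.00036). It was -0.21 within slide 2 and 0.11 between slide 3 and slide 1.

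Cbs and Cth encode the successive enzymes of transsulfuration. Cbs, which joins homocysteine to serine, was 15.81, 16.19 and 16.23 at the lowest, median and highest in Floxed liver and 15.91, 15.98 and 16.24 in LKO liver. Most LKO mice sat below most Floxed mice, but LKO 2 was the highest of all 12 and Floxed 6 the lowest. The difference was -0.091 (SE 0.093, 95% interval -0.29 to 0.11), with an exact permutation p of 0.284. It was 0.10 within slide 2 and -0.19 between slide 3 and slide 1.

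Cth, which splits cystathionine to release cysteine, was 13.67, 13.83 and 14.27 at the lowest, median and highest in Floxed liver and 13.78, 13.86 and 14.19 in LKO liver. All LKO values lay within the Floxed range. The difference was -0.017 (SE 0.12, 95% interval -0.27 to 0.23), the second probe gave -0.030, and the sign of the first turned with 75th percentile scaling (0.00080) and with normexp background correction (0.013). For the first probe it was 0.068 within slide 2 and -0.060 between slide 3 and slide 1.

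**Figure D3:**
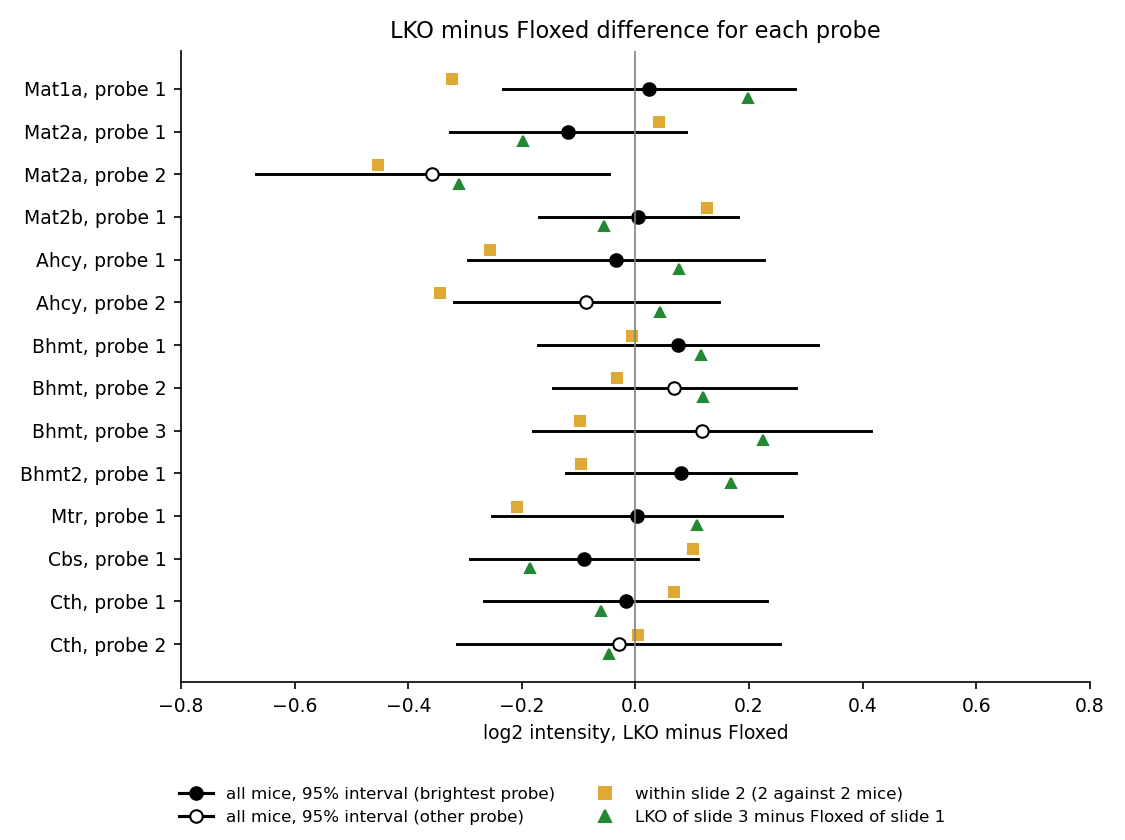
LKO minus Floxed difference in log2 intensity (x axis) for each of the 14 probes, with the 95% interval over all mice (filled circle, brightest probe; open circle, other probes), the difference within slide 2 (squares) and the difference between LKO of slide 3 and Floxed of slide 1 (triangles). Only the interval of the dimmer Mat2a probe, -0.67 to -0.047, leaves out 0, and for 13 of the 14 probes the square and the triangle lie on opposite sides of 0. Over all tested genes, each read by its brightest probe, these 2 differences had opposite signs for 52.6%.

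For 9 of 9 genes the difference within slide 2 had the opposite sign to the difference between slide 3 and slide 1. Over all tested genes the signs were opposite for 52.6%. The difference over all mice is a weighted mean of these 2 differences, so opposite signs go with small differences over all mice, and the count is no separate result. Mat1a, Ahcy, Bhmt, Bhmt2 and Mtr were lower in LKO within slide 2 and higher in LKO of slide 3, and Mat2a, Mat2b, Cbs and Cth ran the other way. The count was 7 with normexp background correction, 5 without Floxed 6 and 6 without LKO 1. The shares over all genes were then 52.3%, 49.3% and 51.1%. With slide as a fixed block, where slide 2 alone carries the genotype difference, none of the 9 was called and Mat1a had the smallest limma p, 0.105. The intervals then widened to folds from 0.605 to 1.41.

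Leaving out LKO 1 and LKO 2 gave differences of 0.099 for Mat1a, -0.20 for Mat2a, -0.040 for Mat2b, 0.12 for Ahcy and for Bhmt, 0.10 for Bhmt2, 0.11 for Mtr, -0.15 for Cbs and -0.098 for Cth. Again 0 of the 9 genes were called by limma, Mat2a coming closest, while 2173 of the 16915 tested genes were called. The LKO mice left were all on slide 3, which held no Floxed mouse, so slide and genotype cannot be told apart here.

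Across the 12 livers the 9 genes formed 36 pairs, of which 19 correlated positively and 17 negatively. After adjustment over the 36 pairs, 0 passed by Pearson's r and 3 by Spearman's rho in permutation tests. Mat2b and Bhmt2 ran opposite to each other (r = -0.79, p = 0.0021, adjusted p = 0.0749; rho = -0.90, p = 0.0002, adjusted p = 0.0086). Mat1a and Bhmt2 ran together (r = 0.73, p = 0.0073, adjusted p = 0.131; rho = 0.83, p = 0.0016, adjusted p = 0.0288). Mat1a and Mat2b ran opposite (r = -0.58, p = 0.0466, adjusted p = 0.239; rho = -0.80, p = 0.0026, adjusted p = 0.0316).

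Without the 2 mice farthest from the median of the first gene, r was -0.65 for Mat2b and Bhmt2, 0.77 for Mat1a and Bhmt2 and -0.61 for Mat1a and Mat2b. Within genotype and slide it was -0.89, 0.66 and -0.52. With 75th percentile scaling in place of quantile normalization it was -0.49, 0.72 and -0.26, so of the 3 pairs the positive one, Mat1a with Bhmt2, changed least. Bhmt and Bhmt2, the neighboring genes, correlated with r = 0.37.

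**Figure D4:**
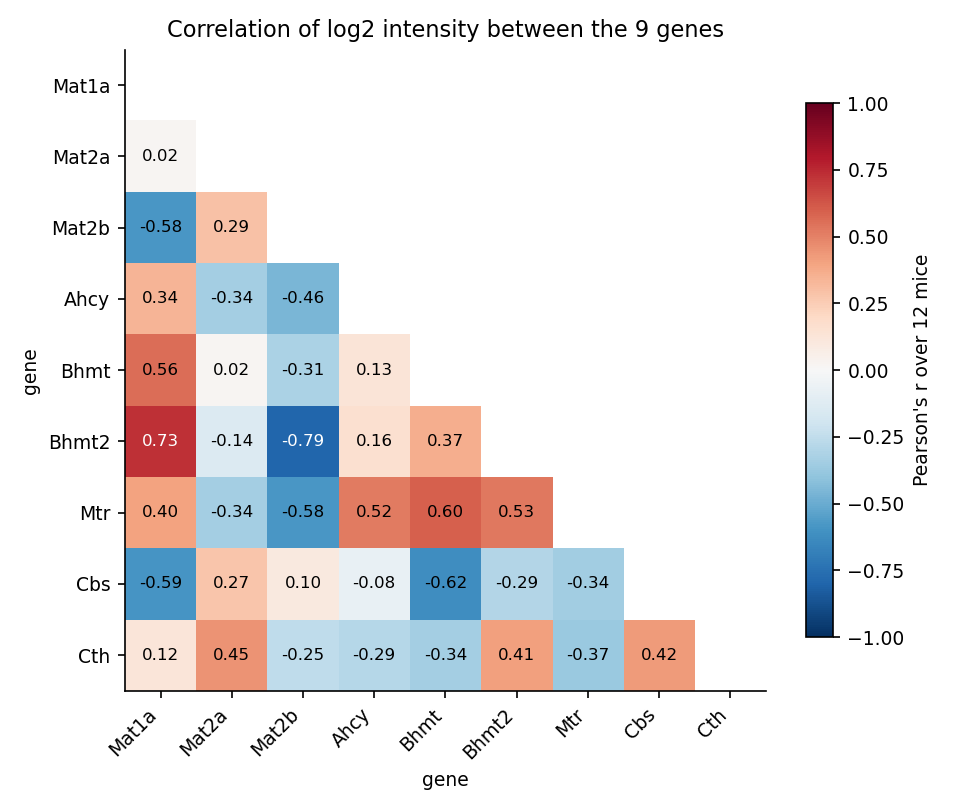
Pearson's r of log2 intensity over the 12 mice for each of the 36 pairs of the 9 enzyme genes, genes on both axes and r given by color and number. Mat1a, Bhmt2, Bhmt and Mtr correlate positively with one another, from 0.37 to 0.73, and negatively with Mat2b and Cbs, but with 75th percentile scaling Bhmt correlates positively with Mat2b (0.39) and Cbs (0.20).

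By pattern over the 12 arrays, the genes most like Mat2a, the member of smallest limma p, were Stau2 (r = 0.945), Xrn1 (r = 0.937) and Map4k5 (r = 0.935) among 12510 genes searched. Without the 2 mice farthest from the Mat2a median r was 0.899, 0.898 and 0.896. As the highest of so many these correlations were selected by size and carry no test.

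The genes around the 9 enzymes were examined through 5 lists holding 69 genes, 65 of which were tested. Of these, 1 was called higher in LKO and 0 lower, against the 8.35% called over all genes. By sign alone, called or not, 42 of the 65 differences were above 0 and 23 below, and the median was 0.047, against 8257 above, 8658 below and a median of -0.0035 for all tested genes. Within slide 2 the pathway list genes split into 30 above 0 and 35 below, and between slide 3 and slide 1 into 43 and 22.

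Among the methyltransferases that consume SAM, 0 of 14 tested genes were called, 8 differences being positive and 6 negative. Gnmt, the abundant glycine N-methyltransferase that buffers liver SAM, differed by 0.084 (95% interval -0.18 to 0.35). Nnmt, which methylates nicotinamide, differed by -0.23 (95% interval -0.56 to 0.090) and was called lower with slide as a fixed block (-0.58), and Tpmt, which methylates thiopurines, by 0.47 (95% interval -0.13 to 1.07). Pemt, which makes phosphatidylcholine from phosphatidylethanolamine, differed by 0.016.

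In the folate and choline arm that feeds remethylation, 0 of 15 tested genes were called, and 12 of the 15 differences were positive. Shmt1 and Shmt2, which pass the one-carbon unit of serine to folate, differed by 0.085 and 0.0033. Chdh, which begins betaine synthesis from choline for the Bhmt enzyme, differed by -0.013.

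Of 17 tested genes that use cysteine for glutathione, taurine and sulfide, 1 was called. Ggct, a cyclotransferase that acts on gamma-glutamyl peptides, had Floxed values of 9.41, 9.57 and 9.86 at the lowest, median and highest and LKO values of 9.70, 9.78 and 10.07. The groups overlapped, and the lowest LKO mouse lay above the Floxed median. Ggct was higher in LKO by 0.22 (SE 0.098, 95% interval 0.0061 to 0.43, limma adjusted p = 0.586), but by 0.050 within slide 2. The call was lost without any 1 of Floxed 1, 2, 3 and 5 and LKO 1, 3, 4 and 5. Of the genes not called, Gclc encodes the catalytic subunit of an enzyme of glutathione synthesis. It differed by 0.010 over all mice but by 0.68 within slide 2, and it was called higher with slide as a fixed block (limma adjusted p = 1). Cdo1, which oxidizes cysteine, differed by -0.084, while Chac1, which degrades glutathione, differed by -0.47 (95% interval -1.05 to 0.12).

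In methionine salvage and polyamine synthesis 0 of 12 tested genes were called. Sat1, which acetylates polyamines, differed by -0.25 (95% interval -0.56 to 0.055), Srm, the spermidine synthase, by -0.21 (95% interval -0.49 to 0.067) and Apip, of the salvage route, by 0.15 (95% interval -0.042 to 0.35). In SAH handling and SAM sensing 0 of 7 were called. Adk, which clears the adenosine that the Ahcy reaction releases, differed by -0.00043 (95% interval -0.18 to 0.18), and Mettl16, the RNA methyltransferase known to act on Mat2a mRNA, by 0.050 (95% interval -0.14 to 0.24).

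**Figure D5:**
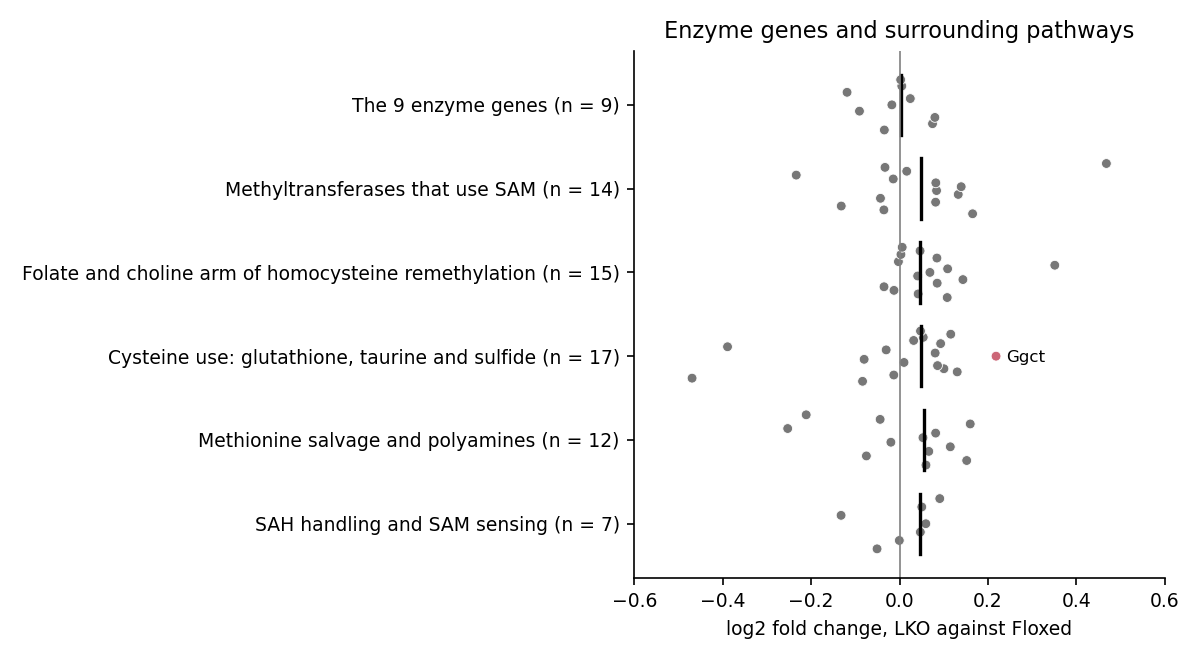
LKO against Floxed log2 fold change (x axis) of the 9 enzyme genes and of the tested genes in 5 surrounding pathway lists (rows, 1 point per gene, vertical bar at the median). Of the points shown only Ggct, at 0.22, was called by limma before adjustment for multiple tests, and the list medians lie at 0.047 to 0.056, against 0.0026 for the 9 enzymes.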

How the data were processed

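Total RNA of 12 mouse livers was labeled with Cy3 and hybridized to single-color Agilent arrays. For each array the authors deposited scanner output with spot intensity, local background intensity, a background-subtracted processed intensity and spot flags (Feature Extraction 10.7.1.1 per the file headers, 9.5.1.1 per the labels). The authors also deposited a table of quantile-normalized intensity on a linear scale, used here as an alternative. The labels name TRIzol and a Promega kit for the RNA and the methods a RiboPure kit.

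From there, log2 values of the processed intensity were brought to a common distribution over the 12 arrays by quantile normalization. Outlier spots (0.298%) were set to missing, control spots were left out, and no spot was saturated. Spots of a probe were averaged, and a probe was kept when well above background on all 12 arrays (20404 of 39429), which replaced the detection p-value of the methods. Between 21614 and 24252 probes were well above background per array. RefSeq accessions were matched to RefSeq gene symbols for 94.27% of the 28389 probes that had one, and each gene was read by its brightest probe. LKO was compared with Floxed in limma 3.58.1 (R 4.3.3) over 16915 genes without covariates, as in the methods, and called at unadjusted p below 0.05, with Benjamini-Hochberg adjusted p beside it. Single genes were also tested by exact permutation (924 arrangements), and correlations by 100000 permutations. The script was tested on simulated data. Groups and mouse numbers came from the labels and the slides from the deposited arrays.

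The named genes are the 9 enzymes, Phgdh, the list genes called and the 3 genes most like Mat2a; other list genes were named after their values were seen. The 9 enzymes and all lists were chosen with earlier results of these data known. Alternatives were 75th percentile scaling, normexp background correction with an offset of 50, the authors' table, other filters on dim probes, outlier spots kept, the mean over probes, the methods' t-test at the unadjusted threshold, other thresholds, slide and replicate number as blocks, and each array left out; leaving out LKO 1 and LKO 2 together was added after seeing the data.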

Additional observations from a re-analysis of the deposited data

Results flagged for a closer look

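Each of the 14 probes of the 9 enzyme genes, and that of Ggct, was searched for a mouse far from the rest of its genotype, in 30 groups of 6 values in all. By chance about 1 in 20 groups, or 1.5 of the 30, would show such a gap. One did: Cbs in LKO 2, on slide 2, was 16.235, whereas the other 5 LKO mice lay between 15.909 and 16.01, so that the gap made up 0.689 of the range of the group.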

How the results depend on the processing

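None of the 9 enzyme genes was called under any alternative except the mean over probes, where 1 was, Mat2a (-0.24, limma adjusted p = 0.527). As their differences were small, several changed sign. With slide as a fixed block they were -0.32 for Mat1a, 0.041 for Mat2a, -0.0061 for Bhmt, -0.097 for Bhmt2, -0.21 for Mtr, 0.10 for Cbs and 0.068 for Cth. Mat2b turned to -0.0034 with 75th percentile scaling, -0.065 with normexp, -0.0056 with slide as a random block and -0.040 without LKO 1 and LKO 2. Ahcy turned to 0.12 without LKO 1 and LKO 2, Mtr to -0.028 with normexp and -0.00036 in the authors' table, and Cth to 0.00080 with 75th percentile scaling and 0.013 with normexp. The cause was not tested.

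The dimmer Mat2a probe was not called with slide as a fixed block (-0.45), without LKO 1 and LKO 2 (-0.37), after adjustment, or with a fold threshold (-0.36 in both).

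Leaving out each array in turn gave differences from -0.035 to 0.11 for Mat1a, -0.18 to -0.085 for Mat2a, -0.43 to -0.26 for its dimmer probe, -0.040 to 0.042 for Mat2b, -0.10 to 0.047 for Ahcy, -0.0068 to 0.15 for Bhmt, 0.034 to 0.12 for Bhmt2, -0.055 to 0.070 for Mtr, -0.15 to -0.064 for Cbs and -0.075 to 0.052 for Cth. The number of the 9 genes called stayed at 0, the pathway list genes called ranged from 0 to 2 and all genes called from 1103 to 1838.

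Over all genes 1413 were called, 832 higher and 581 lower, against 1127 higher and 316 lower with 75th percentile scaling. The count was 2791 with no filter on dim probes, 317 with slide as a fixed block, 88 with a fold threshold, 2173 without LKO 1 and LKO 2 and 0 after adjustment. The pathway list genes called numbered 2 with the mean over probes (Ggct, Slc19a1), 2 with slide as a random block (Ggct, Sat1), 4 without LKO 1 and LKO 2 (Ggct, Apip, Cdo1, Sat1) and 0 after adjustment or with a fold threshold. With slide as a fixed block they numbered 4, among them Gclc (0.68) as higher and Nnmt (-0.58) and Azin1 (-0.40) as lower.

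Same-numbered Floxed and LKO mice carried consecutive animal identifiers in the labels, and whether each such pair were littermates is not stated. The correlations of same-numbered mice ranged from -0.24 to 0.32, and 2 of 6 correlated best with their own number. Same-numbered mice always lay on different slides, so these values cannot decide whether the samples were paired. With the replicate block 1428 genes, 0 of the 9 enzyme genes and 1 pathway list gene (Sat1) were called. As every number occurs once per genotype, the block leaves each difference as it was and changes only its error.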
